A study of Mus musculus with 13 samples.

Results

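The comparison set 2 RNA-seq libraries of mouse MLL-AF10 leukemia stem cells (LSC) exposed to A-485 for 72 h against 2 libraries exposed for 48 h, which are 4 of the 13 libraries of the series. The libraries were chosen by their labels alone, and all 24328 genes of the files were considered. Both groups are bone marrow derived leukemia cells that carry the MLL-AF10 fusion, grown in medium with serum and WEHI-conditioned medium, and both received the inhibitor, so the later group differs by 24 h of further exposure. Earlier times of the same course (0 h untreated, 8 h and 24 h, 2 libraries each) are used only to place this step. There was no vehicle control at 48 h or 72 h, so time in culture and time on the inhibitor cannot be told apart. The sources used here state no dose. Nothing in the labels says that the 2 libraries of a time are separate cultures, and the spread behind each p-value may therefore be technical only.

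A-485 is a small molecule that blocks the catalytic site of p300 and CBP, a pair of closely related acetyltransferases that acetylate histone H3 at enhancers and promoters and thereby keep many cell-type genes transcribed. MLL-AF10 is a fusion oncoprotein that holds progenitor genes such as the Hoxa cluster and Meis1 active in myeloid cells.

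The leukemia label was checked first. Itgam, the myeloid integrin CD11b, was at 598 and 631 CPM (counts scaled to library size with TMM factors) in the 72 h libraries and 805 and 777 CPM in the 48 h libraries. Ptprc, the pan-leukocyte gene CD45, was at 501 and 612 CPM at 72 h and 634 and 621 CPM at 48 h. Kit, the stem cell factor receptor, had only 3 and 0 counts at 72 h and 4 and 3 counts at 48 h, and Mpo, the myeloperoxidase gene of early myeloid cells, had 0 and 0 counts at 72 h and 0 and 1 at 48 h. In the untreated libraries Kit was at 202 and 199 CPM and Mpo at 3120 and 2308 CPM. So the general myeloid markers were present at both times, while these markers of immature cells were at or near 0 at both. Among markers of other cell types, summed levels were 1.13 and 1.08 CPM at 72 h and 0.677 and 1.45 CPM at 48 h for 13 B cell genes, of which 5 had 0 counts in all 4 libraries and none was abundant enough to test, and 3.0 and 2.51 CPM at 72 h and 3.66 and 2.76 CPM at 48 h for 20 T and NK cell genes, of which 13 had 0 counts. The 19 erythroid genes, 7 of them at 0, summed to 33.8 and 39.8 CPM at 72 h and 21.9 and 26.1 CPM at 48 h, and their part in the results was not tested. Sums for 3 further lists were higher. The 13 megakaryocyte genes summed to 225 and 131 CPM at 72 h and 206 and 141 CPM at 48 h. For 19 mast, basophil and eosinophil genes sums were 119 and 66.5 CPM at 72 h and 83.7 and 76.9 at 48 h. The 19 stromal and endothelial genes summed to 402 and 245 CPM at 72 h and 397 and 288 CPM at 48 h. Each of these 3 sums overlapped between the 2 times, and which cells they come from was not tested.

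Totals were 7464909 and 7814915 counts at 72 h and 7009168 and 6467764 counts at 48 h, and the mean effective length per read was 3530 and 3423 nucleotides at 72 h and 3508 and 3424 at 48 h. The 2 libraries at 72 h were not alike in every respect. Wnt2, a secreted signalling ligand gene, was at 20.9 CPM in replicate 1 and 1.08 CPM in replicate 2 at 72 h, against 0.136 and 0.580 CPM at 48 h. Foxc1, a forkhead factor gene, was at 141 and 36.7 CPM at 72 h, against 22.4 and 35.7 CPM at 48 h. Replicate 2 of 8 h and replicate 2 of 24 h were also high in Wnt2, at 67.1 and 69.2 CPM. Several list medians and gene changes are therefore given with and without replicate 1 of 72 h, but not all of them.

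Between 48 h and 72 h most measured transcripts were near a plateau. Of 11119 genes tested with edgeR's quasi-likelihood test at a Benjamini-Hochberg adjusted p under 0.05, 0 were called higher (0% of genes) and 0 lower (0%), with 498 at an unadjusted p under 0.05 (4.48% of genes) and a smallest adjusted p of 0.931. DESeq2 called 9 higher and 4 lower, with 4958 genes given no adjusted p, and limma on log2 TPM called 0. The edgeR test on the 4 libraries alone also called 0, of 10471 genes. It gave 745 genes at an unadjusted p under 0.05 and a smallest adjusted p of 0.17. For the earlier steps, edgeR called 3 genes higher and 233 lower at 48 h against 24 h (2.12% of genes), 1082 higher and 1332 lower at 24 h against 8 h (21.7%), and 1987 higher and 2337 lower at 8 h against 0 h (38.9%). The count at 48 h against 24 h was 0 without replicate 1 of 48 h and 87 without replicate 2 of 48 h. The steps are of unequal length, and only the last 2 span the same 24 h. These adjacent steps share the libraries of the time between them, so they are not independent. The direct test of the difference between the 2 steps of 24 h called 0 genes in edgeR, with 720 at an unadjusted p under 0.05 and a smallest adjusted p of 0.246. Under settings chosen after seeing the data, it called 47 genes without the 3 libraries with Wnt2 above 10 CPM and 31 without the 8 h and 24 h ones of these, so this count depends on the libraries used.

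Library distances gave the same picture without a test. The root mean square log2 CPM difference was 0.453 to 0.595 over the 4 pairs between 72 h and 48 h, with a mean of 0.539. The 2 libraries of 72 h differed by 0.557 and those of 48 h by 0.459. The mean between the 2 times thus lay between the distances within each time. The 0.557 includes replicate 1 of 72 h, which was 0.586 and 0.595 from the 48 h libraries. Replicate 2 of 72 h was 0.522 and 0.453 from them. Between 48 h and 24 h the distance was 0.627 to 0.827, around the 0.695 between the 2 libraries of 24 h and above the 0.459 of 48 h. Between 8 h and 0 h the mean distance was 1.11. The median absolute log2 change was 0.155 at 72 h against 48 h, 0.203 at 48 h against 24 h, 0.346 at 24 h against 8 h and 0.472 at 8 h against 0 h.

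**Figure D1:**
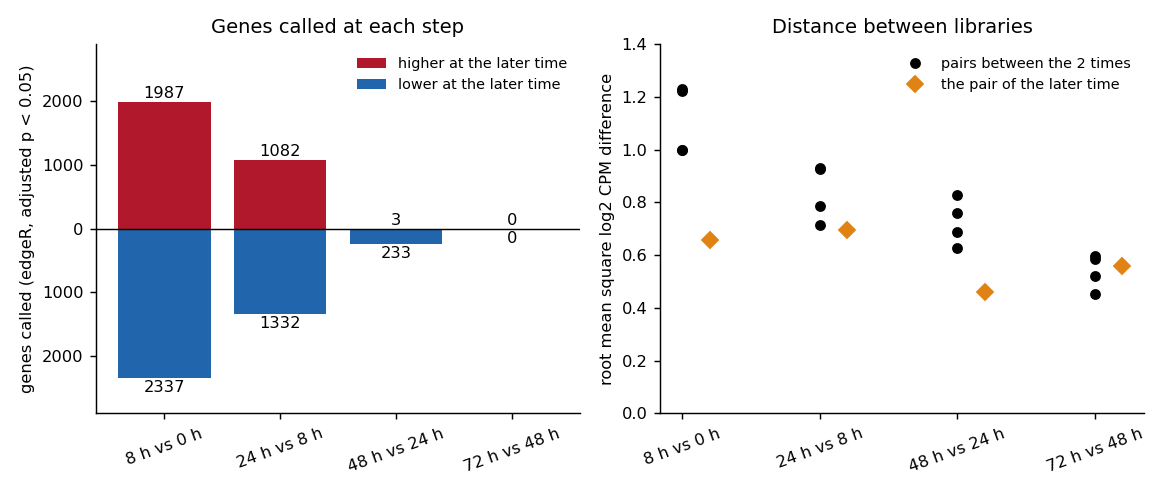
Left, genes called higher (red, up) or lower (blue, down) at the later time of each step (edgeR, adjusted p under 0.05, 11119 genes). Right, root mean square log2 CPM difference of the 4 library pairs between the 2 times (black) and of the 2 libraries of the later time (orange). The step of 72 h against 48 h had 0 calls, and its 4 pairs lay between 0.453 and 0.595, around the 0.557 between the 2 libraries of 72 h.

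A p-value over the threshold does not show that a gene held its level, so the 95% interval of each change was read as well. For 8105 genes (72.9% of those tested) the interval of the log2 change lay within -1 to 1, that is, a change of 2-fold or more in either direction was outside it. The median distance from the change to either end of its interval was 0.436 on the log2 scale. The share within 2-fold was 69.7% at 48 h against 24 h, 59.3% at 24 h against 8 h and 51.5% at 8 h against 0 h. By this measure the last step thus differed little from the one before it. Precision depended on level. The interval lay within 2-fold for 2629 of 2733 genes at 100 CPM or more (96.2%), for 5178 of 5899 genes at 10 to 100 CPM (87.8%), for 298 of 1916 genes at 1 to 10 CPM (15.6%) and for 0 of 571 genes under 1 CPM. Among the lowest genes the data cannot tell a plateau from a large change.

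**Figure D2:**
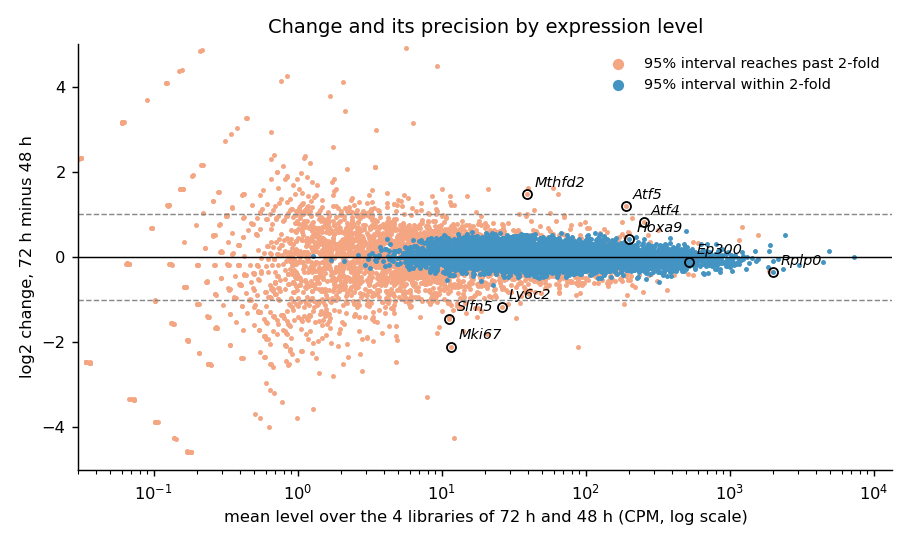
Log2 change at 72 h minus 48 h (vertical axis) against the mean CPM over the 4 libraries (horizontal axis, log scale), 1 point per gene, blue where the 95% interval lies within 2-fold and orange where it reaches past it. The blue points fill the range above 10 CPM, circled genes are named in the text, and 47 genes with 0 counts in all 4 libraries are not drawn and 22 lie outside the axes.

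The response set up by 24 h was followed in the later libraries, which were not part of the difference it was chosen on. They did share the model's estimate of spread, so the choice was not fully independent of them. Of 2584 genes called higher at 24 h than at 0 h, the median log2 change at 72 h against 48 h was 0.00 (-0.00288), against 0.02 (0.0171) over all genes tested, and 2271 (87.9%) stayed within the 2-fold interval. Of 3011 genes called lower, the median was 0.04 (0.0359) and 2111 (70.1%) stayed within it, with many members at very low counts. Over the same genes the median change from 0 h was 0.846 at 72 h and 0.841 at 48 h for those called higher, and -1.19 at 72 h and -1.26 at 48 h for those called lower. At the precision reached, most genes of the 24 h response were thus within 2-fold of their 48 h level at 72 h. For the genes called higher, the median change from 0 h was itself under the bound of 1. A typical one could lose its whole rise and stay within 2-fold, so this count cannot show that the response held. Of these 5595 genes, 0 were called at 72 h against 48 h in either direction by edgeR.

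Genes that had moved between 8 h and 24 h leaned back towards their 8 h levels. Of 1332 genes called lower at 24 h than at 8 h, both 72 h libraries lay above both 48 h libraries for 536 (40.2%, against 21.5% of all genes tested) and below for 104 (7.81%, against 18.1%), and their median log2 change was 0.13. Of 1082 genes called higher at 24 h than at 8 h, both 72 h libraries lay below both 48 h libraries for 351 (32.4%, against 18.1%) and above for 127 (11.7%, against 21.5%), with a median of -0.06. The shifts are small beside the changes from 0 h, where the same genes had medians of -0.99 at 72 h and -1.16 at 48 h for those called lower, and 0.432 at 72 h and 0.501 at 48 h for those called higher. Without replicate 1 of 72 h the medians were 0.08 over 1211 genes called lower and -0.05 over 956 called higher, against 0.00 (0.00136) over all genes. The 233 genes called lower at 48 h than at 24 h did not lean back as a set. Both 72 h libraries lay above both 48 h libraries for 46 of them (19.7%, against 21.5%). Both lay below for 55 (23.6%, against 18.1%), and the median was -0.05. That set was chosen with the 48 h libraries, so it is not independent of this step. The counts and medians are descriptions of the lists and were not tested.

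**Figure D3:**
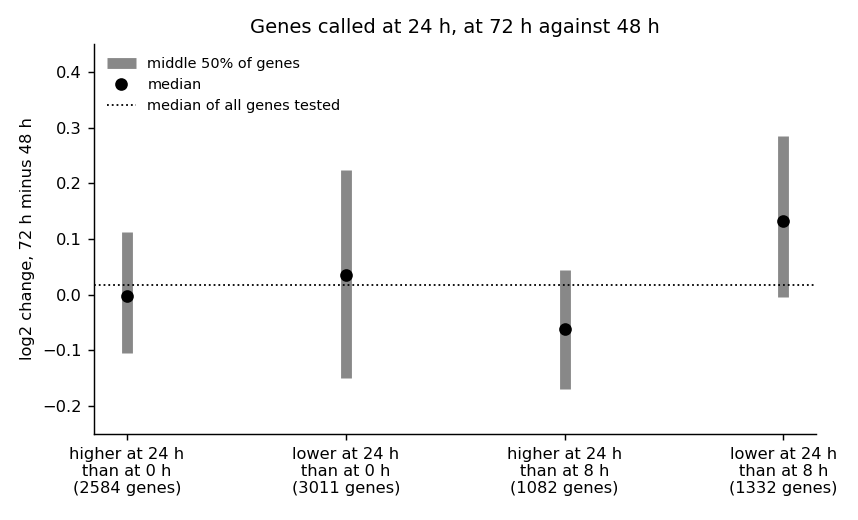
Log2 change at 72 h minus 48 h for genes chosen by their 24 h call against 0 h or 8 h, with the median (point) and the middle 50% of genes (bar), and the median of all genes tested (dotted line, 0.02). The genes lower at 24 h than at 8 h lie mostly above the line and the genes higher at 24 h than at 8 h mostly below it.

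Among genes at 10 CPM or more whose libraries did not overlap, the 6 above the 48 h level with the smallest unadjusted p were Atf5, Mt2, Atf4, Slc7a1, Asns and Mthfd2. Atf4 encodes a transcription factor whose protein is made when charged tRNA runs short or the ER is stressed, and it drives genes for amino acid synthesis, amino acid uptake and tRNA charging. Atf5 encodes a related stress factor. These genes were picked for their small unadjusted p, so their values are descriptions, and every adjusted p was 0.931 in edgeR.

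Atf5 was at 289 and 243 CPM in the 72 h libraries and 103 and 129 CPM in the 48 h libraries, a log2 change of 1.20 ± 0.19 (SE). Both 72 h libraries lay well above both 48 h libraries, and above every earlier library, with 46.7 and 62.1 CPM at 0 h. Atf4 was at 335 and 313 CPM at 72 h and 172 and 195 CPM at 48 h, a log2 change of 0.82 ± 0.15. Unlike Atf5, Atf4 at 72 h was still under its untreated level of 448 and 511 CPM. For the target genes of this program the 2 libraries of 72 h were less alike. Asns, asparagine synthetase, was at 74.8 and 45.6 CPM at 72 h and 25.6 and 30.2 CPM at 48 h (log2 change 1.11 ± 0.22). Mthfd2, a mitochondrial folate enzyme, was at 75.01 and 40.3 CPM at 72 h and 16.4 and 25.1 CPM at 48 h (1.48 ± 0.30). Slc7a1, a transporter of basic amino acids, was at 62.6 and 41.8 CPM at 72 h and 24.1 and 27.6 CPM at 48 h (1.01 ± 0.19). In all 3 genes the groups did not overlap, and replicate 1 of 72 h was the higher one. Without replicate 1 the log2 changes were 0.71 for Asns, 0.96 for Mthfd2 and 0.69 for Slc7a1, against 1.07 for Atf5 and 0.77 for Atf4, so the values of the stress factors depended less on that library than those of the 3 genes. Mt2, a metallothionein that binds zinc and responds to metal and stress, was at 81.0 and 80.03 CPM at 72 h and 40.8 and 48.9 CPM at 48 h (0.85 ± 0.15).

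DESeq2 called these 6 genes at its own adjusted p, 8.98e-05 for Atf5, 0.00215 for Atf4, 0.0026 for Mt2, 0.00304 for Mthfd2, 0.00541 for Asns and 0.00591 for Slc7a1, while edgeR called none. In the wider list of 34 tested ATF4 and unfolded protein response genes, both 72 h libraries lay above both 48 h libraries for 17 genes (50%, against 21.5% of all genes) and below for 6 (17.6%, against 18.1%), and 11 overlapped, with a median log2 change of 0.31, or 0.17 without replicate 1 of 72 h. The genes above were Asns, Psat1, Psph, Shmt2 and Mthfd2, which make amino acids or folate units, the transporter genes Slc7a5 and Slc3a2, the synthetase genes Aars, Gars, Nars and Sars, the stress regulators Atf4, Ddit3, Trib3, Chac1 and Nupr1, and the ER gene Herpud1. Trib3, a pseudokinase induced by ATF4, was at 19.9 and 10.3 CPM at 72 h and 3.25 and 6.82 CPM at 48 h. Shmt2, a serine and glycine enzyme, was at 87.0 and 87.6 CPM at 72 h and 59.7 and 68.6 CPM at 48 h. Phgdh, the first enzyme of serine synthesis, rested on 1 library, with 28.2 and 6.22 CPM at 72 h and 5.96 and 8.71 CPM at 48 h, and its groups overlapped. The 6 genes below, a share near that of all genes, were Hspa5, Pdia4, Edem1, Ero1lb and Dnajc3, which serve folding and quality control in the ER, and the regulator gene Xbp1. Hspa5, the chaperone BiP, was at 533 and 618 CPM at 72 h and 739 and 743 CPM at 48 h. Other ER chaperone genes, among them Hsp90b1 and Calr, overlapped between the 2 times.

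Genes for cytosolic tRNA synthetases, which load amino acids onto tRNA, lay on the same side as Atf4. This list of 20 genes was drawn up after its values were seen and shares Aars, Gars, Nars, Sars and Wars with the list above. Both 72 h libraries lay above both 48 h libraries for 14 (70%, against 21.5% of all genes) and below for 1 (5%, against 18.1%), with a median log2 change of 0.30, or 0.18 without replicate 1. Cars, for cysteine, was at 102 and 85.5 CPM at 72 h and 45.7 and 52.4 CPM at 48 h. Mars, for methionine, was at 119 and 80.03 CPM at 72 h and 63.7 and 53.8 CPM at 48 h. Vars, for valine, was at 104 and 86.7 CPM at 72 h and 56.2 and 64.1 CPM at 48 h. Replicate 1 exceeded replicate 2 at 72 h for 18 of the 20 genes, against 50.4% of all genes tested, yet replicate 2 alone was above both 48 h libraries for 15 of them (75%, against 37.2% of all genes).

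The promoters of these genes were searched for the letters of a C/EBP-ATF response element, TGATGNAA on either strand, in the 250 bases before the start. The sequences are those of RefSeq on build GRCm38.p6, which is not the build of the deposited data. The letters were present in 217 of 10865 promoters of genes tested (2%), in 8 of 31 promoters found for 30 of the 34 ATF4 and unfolded protein response genes (25.8%) and in 3 of 12 promoters found for 12 of the 20 synthetase genes (25%). Aars and Gars hold a match and are counted in both lists. The first list was drawn from ATF4 and unfolded protein response genes, so its share describes the list and not the step from 48 h to 72 h. Atf3 and Slc7a11 also hold a match and are not among the genes that lay above. The promoters of Atf4, Atf5, Mthfd2, Mt2 and Slc7a1 held no match in this window. The last 130 bases before the start are shown for 3 genes that lay above in both libraries and hold a match, to let the placement of the element be compared, with the match in capitals. Asns is on the minus strand at chr6:7693210-7693339, Gars on the plus strand at chr6:55037871-55038000 and Tars, the threonine enzyme gene, on the minus strand at chr15:11399659-11399788.
Asns: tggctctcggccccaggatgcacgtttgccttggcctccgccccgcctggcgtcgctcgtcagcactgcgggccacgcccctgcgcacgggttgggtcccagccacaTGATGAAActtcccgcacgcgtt
Gars: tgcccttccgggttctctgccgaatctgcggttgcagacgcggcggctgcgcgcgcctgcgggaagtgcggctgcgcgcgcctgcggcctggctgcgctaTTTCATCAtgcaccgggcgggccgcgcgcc
Tars: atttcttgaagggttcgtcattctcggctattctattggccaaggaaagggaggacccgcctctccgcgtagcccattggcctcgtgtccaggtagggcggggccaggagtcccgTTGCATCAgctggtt
The match begins 23 bases before the start in Asns, on the strand of the gene, 30 bases before it in Gars and 15 in Tars, both on the opposite strand. Gars was at 157 and 118 CPM at 72 h and 106 and 99.2 CPM at 48 h, and Tars at 82.7 and 69.7 CPM at 72 h and 53.4 and 57.7 CPM at 48 h, so the groups did not overlap in either gene. A match of letters says nothing of whether the factor is bound.

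**Figure D4:**
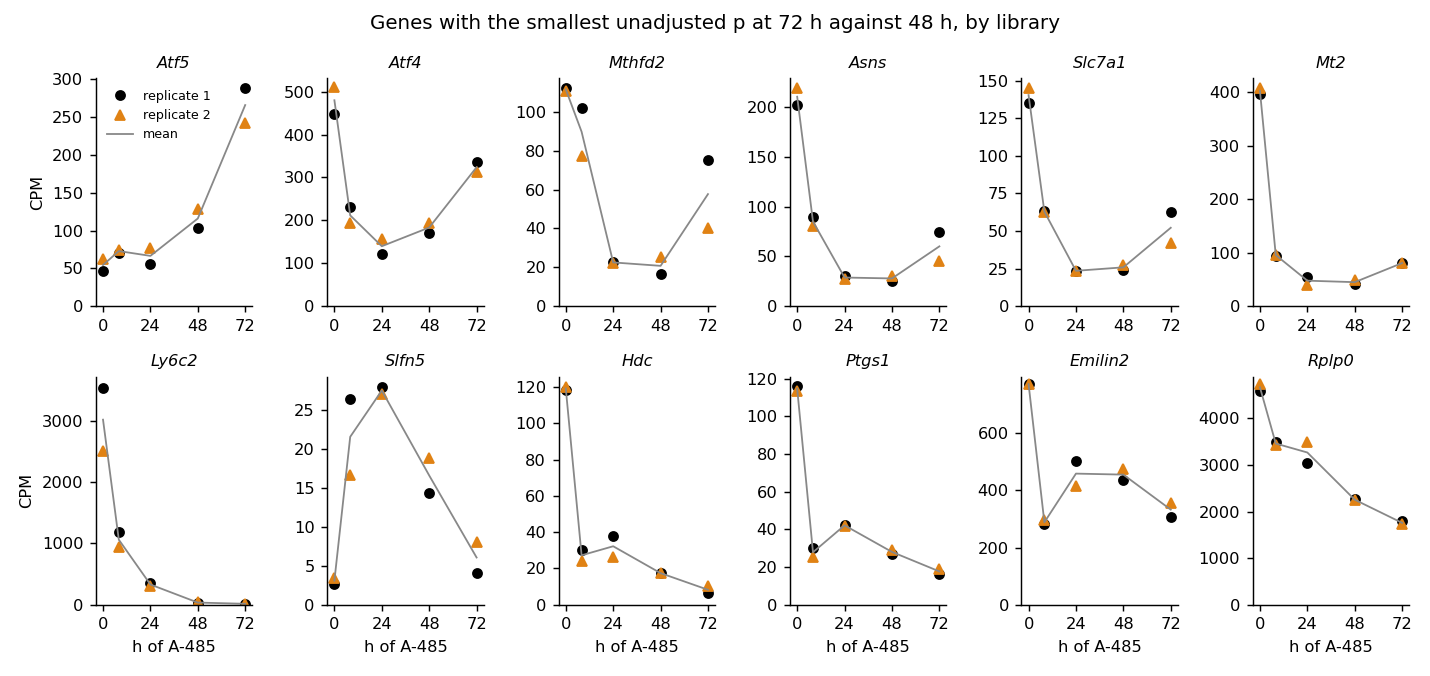
CPM of each library (replicate 1 black circle, replicate 2 orange triangle) and their mean (grey line) against hours of A-485, for the 6 genes above and the 6 genes below the 48 h level with the smallest unadjusted p. In the upper row the 72 h points stand above the 48 h points, with replicates apart for Mthfd2, Asns and Slc7a1. In the lower row they stand below.

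Most listed growth genes that MYC is known to control also lay above their 48 h levels. This list shares Mthfd2 and Shmt2 with the ATF4 and unfolded protein response list. Both 72 h libraries were above both 48 h libraries for 37 of 50 MYC target genes (74%, against 21.5% of all genes tested) and below for 1 (2%, against 18.1%), with a median log2 change of 0.31, or 0.19 without replicate 1 of 72 h. The libraries also differed in these genes, since replicate 1 exceeded replicate 2 for 38 of the 50 (76%, against 50.4% of all genes). Even so, replicate 2 alone was above both 48 h libraries for 38 (76%, against 37.2%). Nop56, a nucleolar protein of snoRNA particles, was at 52.97 and 47.0 CPM at 72 h and 36.8 and 33.4 CPM at 48 h. Odc1, the first enzyme of polyamine synthesis, was at 58.9 and 46.8 CPM at 72 h and 30.9 and 37.0 CPM at 48 h. Ran, a nuclear transport GTPase, was at 154 and 136 CPM at 72 h and 107 and 113 CPM at 48 h. These differences did not return the list to its 0 h levels, because both 72 h libraries stayed below both 0 h libraries for 50 of 50 genes. The share over all genes was not counted for this measure. The count is not particular to this list, since it was also 50 of 50 for cytosolic ribosomal protein genes. Over all genes, edgeR called 3272 of 11119 lower at 72 h than at 0 h. Myc itself was at 5.63 and 1.68 CPM at 72 h and 9.21 and 2.18 CPM at 48 h, with overlapping groups, against 447 and 497 CPM at 0 h.

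Among 47 genes of oxidative phosphorylation, 20 lay above (42.6%, against 21.5% of all genes) and 4 below (8.51%, against 18.1%), with a median of 0.12 that was 0.07 without replicate 1 of 48 h and 0.02 with the trend on transcript length removed. Cycs, cytochrome c, was at 49.6 and 38.6 CPM at 72 h and 30.2 and 33.8 CPM at 48 h. Among 49 S-phase genes, 17 lay above (34.7%, against 21.5%) and 2 below (4.08%, against 18.1%), with a median of 0.17, and Mcm2, a subunit of the replicative helicase, was at 32.2 and 26.4 CPM at 72 h and 19.4 and 19.4 CPM at 48 h. For 49 of the 49, both 72 h libraries were still below both 0 h libraries, a measure whose share over all genes was not counted. Among 13 heat shock genes, 7 lay above (53.8%, against 21.5%) and 0 below (against 18.1%), with a median of 0.15, or 0.07 without replicate 1 of 72 h, and Dnaja1, a cochaperone of HSP70, was at 211 and 178 CPM at 72 h and 149 and 162 CPM at 48 h. Cytosolic ribosomal protein genes had 2 of 50 above (4%, against 21.5%), 12 below (24%, against 18.1%) and a median of -0.06 that became 0.02 without replicate 1 of 72 h. Rplp0, a protein of the ribosomal stalk, was at 1788 and 1728 CPM at 72 h and 2262 and 2249 CPM at 48 h, a log2 change of -0.36 ± 0.10.

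Of 24 monocyte and macrophage genes, both 72 h libraries were below both 48 h libraries for 14 (58.3%, against 18.1% of all genes) and above for 0 (against 21.5%). The median was -0.77, or -0.93 without replicate 1 and -0.53 without replicate 2 of 72 h. In limma on log2 of TPM plus 1 it was -0.39. The interval lay within 2-fold for only 4 of the 24 genes, so the size of the median is uncertain. Ly6c2, a surface antigen of inflammatory monocytes, was at 14.8 and 17.5 CPM at 72 h and 34.5 and 37.9 CPM at 48 h, a log2 change of -1.17 ± 0.21. Its groups were far apart, and its level was lower at each later time of the course, with 355 and 306 CPM at 24 h and 3537 and 2500 CPM at 0 h. DESeq2 called Ly6c2 lower with an adjusted p of 8.98e-05, and edgeR gave 0.931. Lyz2, lysozyme of phagocytes, was at 42.3 and 24.0 CPM at 72 h and 193 and 92.6 CPM at 48 h. Cd68, a lysosomal protein of macrophages, was at 39.4 and 39.8 CPM at 72 h and 49.0 and 61.7 CPM at 48 h, and Adgre1, the macrophage antigen F4/80, was at 326 and 269 CPM at 72 h and 430 and 338 CPM at 48 h. In bulk samples, fewer cells of a type and less RNA per cell cannot be told apart.

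Of 17 neutrophil maturation genes, 7 lay below (41.2%, against 18.1% of all genes) and 0 above (against 21.5%), with a median of -0.90 that rests on low counts and was -0.23 without replicate 1 of 48 h. Pglyrp1, a bactericidal granule protein, was at 14.5 and 15.6 CPM at 72 h and 25.5 and 32.2 CPM at 48 h. Hdc, the histamine-forming enzyme kept with the primary granule genes here, was at 6.39 and 10.2 CPM at 72 h and 17.5 and 17.4 CPM at 48 h, a log2 change of -1.07 ± 0.26. Other genes below with small unadjusted p were Ptgs1, the prostaglandin synthase COX-1, with 16.4 and 19.0 CPM at 72 h and 27.1 and 29.0 CPM at 48 h, and Slfn5, a member of the Schlafen family, with 4.13 and 8.02 CPM at 72 h and 14.4 and 18.9 CPM at 48 h. Emilin2, an extracellular matrix glycoprotein gene, was at 308 and 357 CPM at 72 h and 435 and 475 CPM at 48 h. In each of these genes both 72 h libraries were below both 48 h libraries.

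Both 72 h libraries were below both 48 h libraries for 21 of 32 glycolysis and hypoxia genes (65.6%, against 18.1%) and above for 3 (9.38%, against 21.5%), with a median of -0.21, or -0.13 without replicate 1 of 48 h. Gapdh was at 1695 and 1705 CPM at 72 h and 1999 and 1989 CPM at 48 h. Pdk1, a kinase that inhibits pyruvate dehydrogenase, was at 107 and 105 CPM at 72 h and 148 and 150 CPM at 48 h. Pfkp, a phosphofructokinase, lay on the other side, at 222 and 154 CPM at 72 h and 139 and 137 CPM at 48 h. Among 28 p53 targets, 14 lay below (50%, against 18.1%) and 1 above (3.57%, against 21.5%), with a median of -0.18. Cdkn1a, the cell cycle inhibitor p21, was at 403 and 367 CPM at 72 h and 518 and 422 CPM at 48 h, and Trp53inp1 at 203 and 230 CPM at 72 h and 322 and 297 CPM at 48 h.

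Mitotic genes were at low levels at both times. Mki67, the proliferation antigen Ki-67, was at 3.13 and 5.62 CPM at 72 h and 8.53 and 29.5 CPM at 48 h, against 404 and 171 CPM at 24 h. Aurkb, a mitotic kinase, was at 0.376 and 1.08 CPM at 72 h and 3.93 and 3.63 CPM at 48 h, and DESeq2 called it lower (adjusted p = 0.0199). Of 50 G2/M genes, 15 lay below (30%, against 18.1% of all genes) and 4 above (8%, against 21.5%), with a median of -0.47. This median rests on replicate 2 of 48 h and was 0.14 without it. The log2 change of Mki67 was -2.10 ± 0.67, and -0.96 without that library.

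**Figure D5:**
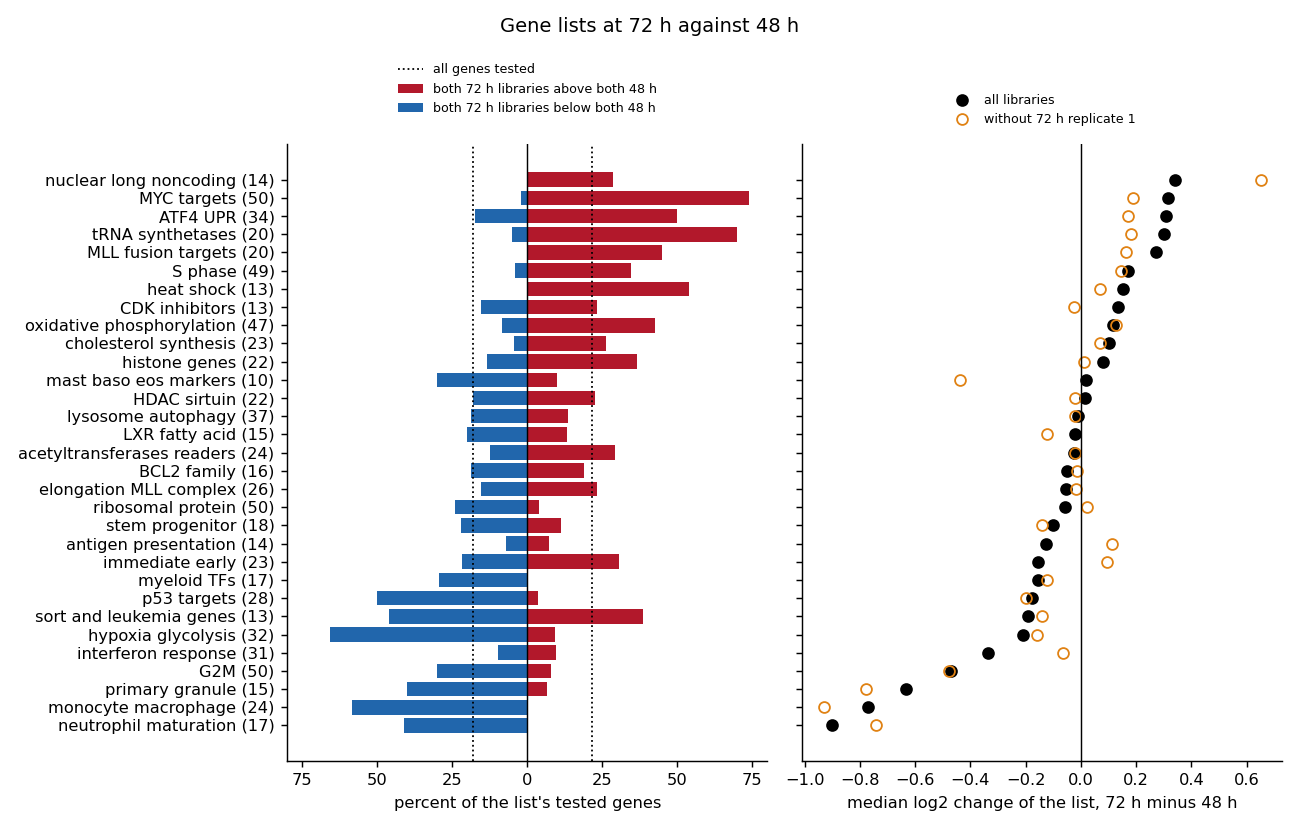
Left, percent of the tested genes (number in brackets) of each list with at least 10 of them with both 72 h libraries above (red, right) or below (blue, left) both 48 h libraries, and the same percent over all genes tested (dotted lines, 21.5% above and 18.1% below). Right, the median log2 change of each list with all libraries (black) and without replicate 1 of 72 h (orange circle). MYC targets and tRNA synthetases reach furthest above the dotted line, and hypoxia and glycolysis and monocyte and macrophage genes furthest below it among the lists drawn.

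The genes of the inhibited enzymes stayed within 2-fold of their 48 h levels. Ep300, which encodes p300, was at 539 and 475 CPM at 72 h and 601 and 491 CPM at 48 h, a log2 change of -0.11 ± 0.13 with a 95% interval of -0.41 to 0.20. Crebbp, which encodes CBP, was at 177 and 163 CPM at 72 h and 197 and 168 CPM at 48 h, with an interval of -0.39 to 0.18. Both had been called higher at 72 h than at 0 h by edgeR, with log2 changes of 1.71 (adjusted p = 3.06e-05) and 1.89 (adjusted p = 1.58e-05), and the groups of 72 h and 48 h overlapped for both. Of 24 acetyltransferases and acetyl-lysine readers, the interval lay within 2-fold for 24.

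Hoxa9 was at 222 and 238 CPM at 72 h and 162 and 180 CPM at 48 h, and both 72 h libraries were the higher ones (log2 change 0.43 ± 0.22, interval -0.08 to 0.94). Meis1, its cofactor, was at 114 and 81.7 CPM at 72 h and 77.9 and 82.7 CPM at 48 h, with overlapping groups. Of 20 tested MLL-fusion targets, 9 lay above (45%, against 21.5% of all genes) and 0 below (against 18.1%). Their median was 0.27, or 0.17 without replicate 1 of 72 h. That replicate was the higher library at 72 h for 15 of the 20 (75%, against 50.4% of all genes). Mecom, a stem cell factor on this list, showed the gap between libraries, at 108 and 44.6 CPM at 72 h and 35.4 and 39.0 CPM at 48 h. Bcl2, the anti-apoptotic gene, was at 32.7 and 32.4 CPM at 72 h and 30.6 and 32.2 CPM at 48 h, an interval of -0.30 to 0.41. Thbs1, a matrix glycoprotein gene, was at 37.9 and 63.0 CPM at 72 h and 80.3 and 78.2 CPM at 48 h, below in both libraries, against 5982 and 5749 CPM at 0 h.

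Malat1, a long noncoding RNA of nuclear speckles, was at 2666 and 3063 CPM at 72 h and 1757 and 2229 CPM at 48 h, a log2 change of 0.52 ± 0.20 with both 72 h libraries the higher ones. Neat1, the scaffold of paraspeckles, was at 839 and 2175 CPM at 72 h and 781 and 1075 CPM at 48 h, with overlapping groups. Of 14 tested nuclear long noncoding RNAs, 4 lay above (28.6%, against 21.5% of all genes) and 0 below (against 18.1%). Replicate 2 of 72 h alone was above both 48 h libraries for 13 of the 14 (92.9%, against 37.2% of all genes). Replicate 1 alone was above them for 4 (28.6%, against 40.2% of all genes).

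The 16 genes with the largest 24 h differences from 0 h were read last. Of the 8 highest at 24 h, 1 lay above its 48 h level in both 72 h libraries (Gbp2, an interferon-induced GTPase, 121 and 93.3 CPM at 72 h and 71.8 and 85.2 CPM at 48 h), 1 lay below (Gatsl2, 30.3 and 25.1 CPM at 72 h and 35.5 and 34.2 CPM at 48 h) and the other 6 overlapped. Ctss, the lysosomal protease cathepsin S, was at 82.6 and 199 CPM at 72 h and 143 and 227 CPM at 48 h. The 8 lowest at 24 h (Mpo, Pde11a, Camp, Lipg, Stab1, Cldn15, Sash1 and Ngp) had 0 to 5 counts in every library of 72 h and 48 h, so no fold is given.

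A few calls made under other settings concern near-identical gene copies. Amd1 was at 0 and 74.4 CPM at 72 h and 0 and 0 CPM at 48 h, while its copy Amd2 was at 85.5 and 9.81 CPM at 72 h and 84.2 and 83.9 CPM at 48 h. The sum of both was 85.5 and 84.2 CPM at 72 h and 84.2 and 83.9 CPM at 48 h. Eif3j2 was at 104 and 2.03 CPM at 72 h and 0 and 0 CPM at 48 h, and with Eif3j1 it summed to 104 and 95.1 CPM at 72 h and 80.9 and 87.5 CPM at 48 h. The split of reads between such copies is uncertain, and no change of these genes is reported.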

How the data were processed

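RNA was extracted with RNeasy Plus kits, per the labels' protocols, and the submitters' processing notes list STAR, RSEM and the build mm9, with no versions. Per the file headers, each deposited file holds an expected count, a TPM value and an effective length (another measure, in nucleotides) per gene. Deposited expected counts are estimated reads, not scaled to depth, and the authors' TPM values correct for gene length and sum to a fixed total in each library.

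Expected counts were rounded. The quasi-likelihood test of edgeR 4.0.16 (R 4.3.3) was fitted to all 10 time-course libraries, with time as a factor, TMM scaling and the low-count filter filterByExpr. Benjamini-Hochberg adjustment ran over 11119 genes. The SE is the absolute log2 change over the root of F, and 95% intervals use it, with none for genes at 0 in all 4 libraries. The biological coefficient of variation was 0.186. DESeq2 1.42.0 and limma 3.58.1 (log2 of TPM plus 1 or 0.1) were alternatives. Named genes were 14 fixed ones, the 6 above and 6 below with the smallest unadjusted p, at least 10 CPM and groups that do not overlap, and the 8 largest rises and 8 falls at 24 h. The scripts were tested on simulated data. The comparison, gene lists and named genes were chosen with earlier results of these data known. The 3 single libraries of the series were left out.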

Additional observations from a re-analysis of the deposited data

How the results depend on the processing

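The count of genes called at 72 h against 48 h was 0 higher and 0 lower in edgeR with RLE or library size scaling, no low-count filter, the 4 libraries alone, the length trend removed, a threshold of 0.01, a test against 1.5-fold, and in limma on both TPM scales, while DESeq2 called 9 higher and 4 lower. Leaving out 1 library gave 0 higher and 0 to 1 lower, the 1 being Amd2 without replicate 1 of 72 h. The 3 libraries with Wnt2 above 10 CPM (8 h replicate 2, 24 h replicate 2 and 72 h replicate 1) were left out as a setting chosen after seeing the data, with 1 higher (Amd1) and 1 lower (Amd2) called. The replicate block gave 0 higher and 0 lower, with a smallest adjusted p of 0.584; the deviations of same-numbered libraries at 72 h and 48 h correlated at 0.151, those at 24 h and 8 h at 0.644 and those at 72 h and 8 h at -0.402, and with 2 numbers and no label that ties them, they were not taken to pair the samples. Genes with intervals within 2-fold ranged from 7069 to 7436 with 1 library left out, and from 8092 to 8515 otherwise. Genes called at 48 h against 24 h ranged from 0 (without replicate 1 of 48 h) to 192 with 1 library left out, and were 409 without the 3 Wnt2-high libraries. Genes whose step changed ranged from 0 to 1 with 1 library left out, and were 47 without those 3 libraries and 31 without the 8 h and 24 h ones. Genes called at 24 h that moved ranged from 0 to 1 with 1 library left out, and were 1 without the 3. With 1 library left out, signs of log2 changes turned for Ep300 (-0.245 to 0.047), Crebbp (-0.214 to 0.0132) and Myc (-1.77 to 0.735), each without replicate 1 of 48 h, for Pcdhgb7 (-0.028 to 0.916) without replicate 2 of 48 h, for Neat1 (-0.143 to 1.23) without replicate 2 of 72 h, and for Ctss (-1.16 to 0.103) without replicate 1 of 72 h, and for Ctss (0.104) without the 3 libraries. The cause was not tested. Under 10 CPM, intervals mostly reached past 2-fold.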

Other observations

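Zfp36, which speeds the decay of AU-rich mRNA, was at 115 and 143 CPM at 72 h and 86.0 and 75.7 CPM at 48 h, and Ier2 was at 164 and 171 CPM at 72 h and 115 and 109 CPM at 48 h. Dusp6, the phosphatase that switches off ERK, was at 10.8 and 13.4 CPM at 72 h and 22.2 and 22.3 CPM at 48 h. In each of these 3 genes the groups did not overlap, while over the 23 tested immediate-early genes 7 lay above (30.4%, against 21.5% of all genes) and 5 below (21.7%, against 18.1%), shares near those of all genes.

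H2afz, the histone variant H2A.Z, was at 290 and 291 CPM at 72 h and 211 and 223 CPM at 48 h, and DESeq2 called it higher (adjusted p = 0.0402) while edgeR did not (adjusted p = 0.931). C3, complement component 3, was at 146 and 89.2 CPM at 72 h and 307 and 199 CPM at 48 h, and DESeq2 called it lower (adjusted p = 0.0313). Of 37 tested lysosome and autophagy genes, 34 had intervals within 2-fold, 5 lay above (13.5%, against 21.5% of all genes) and 7 below (18.9%, against 18.1%). The 31 tested genes of the interferon response gave a median log2 change of -0.34, and of 0.13 without replicate 2 of 48 h, so no direction is given. These genes were chosen after their values were seen.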
